A study of Macaca radiata with 4 samples.

Results

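This report describes the genes for antioxidant enzymes, glutathione metabolism and metallothioneins in the corpus luteum of the bonnet monkey (Macaca radiata), the gland that forms from the ovulated follicle and makes progesterone. The members are the genes whose symbols belong to the superoxide dismutases, catalase, glutathione peroxidases, peroxiredoxins, thioredoxin-named genes, glutaredoxins, glutathione S-transferases, glutathione synthesis enzymes, metallothioneins, quinone and methionine sulfoxide reductases and the NRF2 regulators. The rule found 55 genes of 14132 with a single symbol in the array's annotation, through 107 of 52865 probe sets, and each gene was read from its brightest probe set. Of the 55, 54 passed the filter on dim probe sets (a mean of log2(signal + 16) above the level of a signal of 90.7), and these are called the measured members below. PRDX6, a peroxiredoxin that also acts on phospholipids, did not pass, at 180 and 76.4 with PBS and 56.7 and 79.7 with rhLH. The rule's symbols SOD3, GPX1, GPX3, PRDX1, PRDX5, GSS, GSR, NQO1, SEPP1 and SEPW1 were not matched to a probe set with the annotation used here. GPX5, also covered by the rule, was not among the 55 genes either. TXN, thioredoxin itself, shared its probe set with other genes and was not analysed.

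All animals were females on day 7 of their luteal phase, and all received CET (150 µg/kg), which the labels give as an inhibitor of endogenous LH. The PBS group received the vehicle at 24 h, and the rhLH group received 20 IU/kg of rhLH, recombinant LH, into a vein. Corpora lutea were taken 8 h later, and RNA of 2 animals per group was described, one array per sample, with PBS replicates 1 and 2 and rhLH replicates 3 and 4. The animals' age is not among the labels used here, the arrays were designed for the rhesus macaque, and both groups had the same LH blockade, so neither is an untreated corpus luteum. The samples were pieces of whole tissue, in which fewer cells of a type and less RNA per cell cannot be told apart.

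Cells that make steroids carry electrons through mitochondrial cytochromes P450, and some of these electrons leak to oxygen. Superoxide dismutases turn the superoxide into hydrogen peroxide, which catalase, glutathione peroxidases and peroxiredoxins then remove with reducing power from glutathione and thioredoxin. Glutathione S-transferases join glutathione to reactive compounds, and metallothioneins are small cysteine-rich proteins that bind zinc and copper. KEAP1 holds back the transcription factor NRF2 (gene NFE2L2), which drives many of these genes under oxidative stress. In the corpus luteum, reactive oxygen is known to accompany regression.

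PBS replicate 1 stood apart from the other 3 arrays before any comparison. Its log2 signals correlated with theirs at 0.752 to 0.780 across kept probe sets, against 0.940 to 0.947 among the other 3. The ratio of the 3′ to the 5′ probe set of ACTB, which grows as RNA is broken or incompletely copied, reached 11.2 on this array but stayed between 1.49 and 1.59 on the remaining 3. For GAPDH it was 3.23 against 1.62 to 2.28. Of the 8 granulosa-lutein markers measured, 0 were at 0, and STAR, which carries cholesterol into the mitochondrion, gave 24283 on this array and between 51660 and 54566 elsewhere. INHA, CYP19A1 and AMHR2 of that list differed more than STAR between the PBS arrays, with 7756 and 44827 for INHA. NR5A2, FDX1 and HSD3B2 differed less, with 25500 and 29153 for HSD3B2, and HSD17B1 went the other way, with 67.1 and 51.4. LHCGR and CYP11A1 were not matched with the annotation used here. Differences are therefore also given for the PBS arrays singly: a pair of values in brackets sets the rhLH mean against PBS replicate 1 first and PBS replicate 2 second, on the log2 scale.

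The measured members were on balance higher with rhLH against PBS replicate 1 and centred on 0 against PBS replicate 2. Their median log2 difference, rhLH minus PBS, was 0.28 (interquartile range −0.02 to 0.51), beside 0.02 over all 10998 measured genes. Taken against PBS replicate 1 it was 0.53, and against the other PBS array −0.0015, where all genes gave −0.01 and −0.0024. A difference above 0 was found for 42 of 54 members, 77.8%, against PBS replicate 1, beside 49.5% of all genes. Against PBS replicate 2 it was found for 27 of 54, 50.0%, beside 49.7% of all genes. For 27 members, 50.0%, the signs against the PBS arrays were opposite, beside 47.5% of all genes. PBS replicate 1 held the lowest of the 4 signals for 39 members, 72.2%, beside 39.8% of all genes.

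No member passed the test of rhLH against PBS. In limma, with Benjamini-Hochberg adjustment over all 31659 kept probe sets, 0 were called at an adjusted p of 0.05 (0% of those tested), and the members' adjusted p-values ran from 0.919 to 0.981. An unadjusted p under 0.05 was found for 1 member, MT2A, or 1.85% of members, beside 1.9% of all genes; over all kept probe sets there were 641. Both rhLH signals lay above both PBS signals for 14 members, 25.9%, beside 16.3% of all genes. Both lay below for 3 members, 5.56%, beside 16.1% of all genes. With quantile normalization these counts were 13 and 5, beside 17.3% and 14.4% of all genes. Without PBS replicate 1 they were 18 and 20, beside 34.7% and 34.1% of all genes, and without PBS replicate 2 they were 40 and 8, beside 43.5% in each direction. By a stricter rule, every rhLH array at least 2-fold from every PBS array, 0 members were higher and 0 lower, beside 0.318% and 0.336% of all genes.

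**Figure D1:**
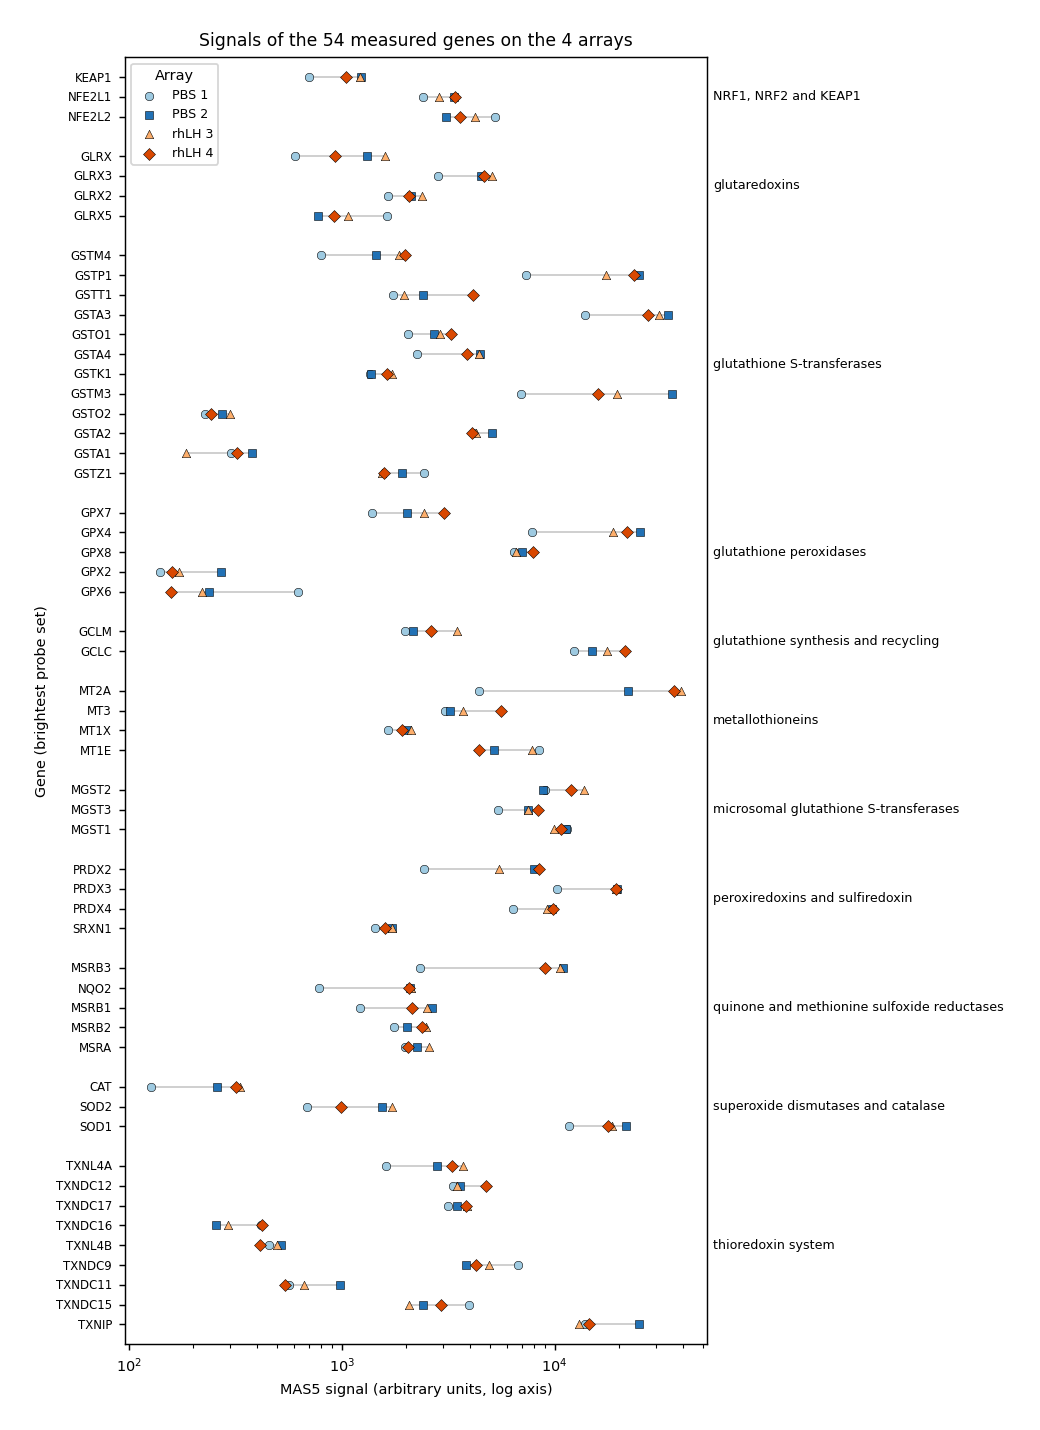
Signals of the 54 measured members on the 4 arrays (log axis, arbitrary MAS5 units), 1 row per gene, grouped by role; grey lines span the 4 signals. PBS replicate 1 (pale circles) is the lowest of the 4 for 39 genes; signals of different genes come from different probes and cannot be set against each other.

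Most members had bright probe sets, and bright probe sets as a whole read low on PBS replicate 1. When all measured genes were split into 5 equal groups by mean signal, a split added after the values were seen, 36 of the 54 members fell in the brightest group. All 2200 genes of that group had a median log2 difference of 0.35 against PBS replicate 1 and one of 0.03 against the other PBS array. The 36 members had 0.58 and 0.06. Both rhLH signals lay above both PBS signals for 11 of these 36, 30.6%, beside 23.5% of all genes of that group. In the dimmest group, where 1 member fell, all genes gave −0.45 and −0.05. The part of this brightness pattern, of the probe-end ratios and of tissue make-up in the members' difference was not tested.

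**Figure D2:**
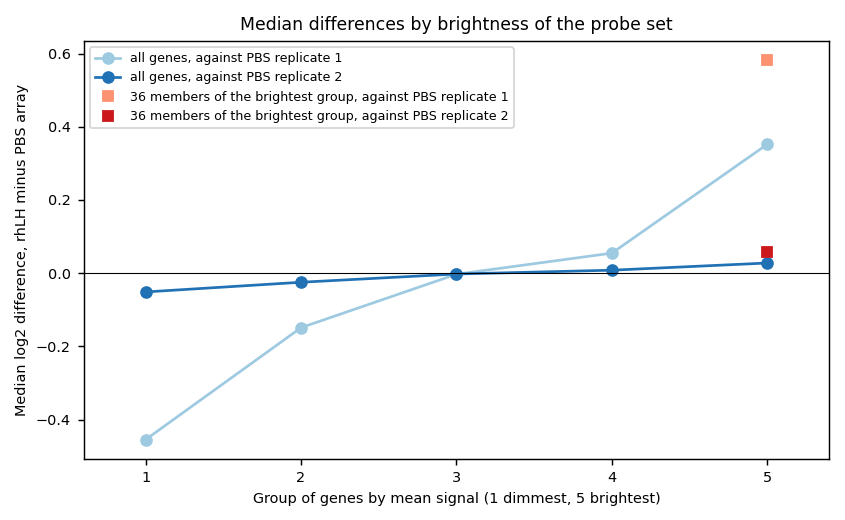
Median log2 difference, rhLH mean minus a PBS array, by group of genes ranked on mean signal (1 dimmest, 5 brightest). Lines are all measured genes and squares are the 36 members of the brightest group; against PBS replicate 1 the line runs from −0.45 to 0.35, and against the other PBS array from −0.05 to 0.03.

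Of the 4 metallothioneins, MT2A and MT3 were higher on both rhLH arrays (50%, beside 16.3% of all genes). MT1E and MT1X overlapped between the groups. MT2A, the metallothionein that responds to zinc and glucocorticoids in most tissues (probe set MmugDNA.5794.1.S1_at), read 4395 and 22038 with PBS, and 39090 and 36425 with rhLH. The rhLH arrays agree closely and the PBS arrays lie far apart, so that the distance within the PBS group exceeds the distance from PBS replicate 2 to rhLH. The log2 difference was 1.94 (SE 0.76), a 3.83-fold difference on the log2(signal + 16) scale, or 3.10 over PBS replicate 1 and 0.78 over PBS replicate 2 taken singly (limma adjusted p = 0.919). This was the smallest limma p of the members, 0.0450 unadjusted.

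MT3, a metallothionein best known from brain (MmunewRS.949.1.S1_at), had signals of 3047 and 3237 with PBS and of 3698 and 5618 with rhLH. The PBS arrays were close here, and the log2 difference of 0.54 (SE 0.35) was 0.58 against the first and 0.49 against the second; rhLH replicate 4 was the higher of its pair, and without it the difference was 0.23. MT1E (MmunewRS.52.1.S1_s_at) gave 8442 and 5177 with PBS and 7854 and 4417 with rhLH, with a wide spread in both groups and a log2 difference of −0.17 (SE 0.44; −0.52 and 0.19). MT1X (MmugDNA.2973.1.S1_at) gave 1648 and 2018 with PBS and 2111 and 1912 with rhLH, a log2 difference of 0.14 (SE 0.31; 0.28 and −0.0064). Its 3 further probe sets lay at −0.07, −0.15 and −1.04, and the last, with signals of 411, 165, 216.5 and 62.8, was the dimmest. MT1E and MT1X moved to the other side of 0 without PBS replicate 1, to 0.19 for MT1E and −0.0064 for MT1X, and MT1E also without rhLH replicate 4 (0.25). Metallothionein genes are close in sequence, so a probe set may read more than the gene it is assigned to, and the assignment of each value to 1 gene is uncertain.

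Both measured genes of glutathione synthesis were higher on the rhLH arrays than on either PBS array, beside 16.3% of all genes. GCLC and GCLM encode the catalytic and the modifier subunit of glutamate-cysteine ligase, which makes the first and rate-limiting step of glutathione synthesis. GCLM (MmugDNA.16763.1.S1_at) had signals of 1995 and 2155 with PBS and of 3497 and 2634 with rhLH. The PBS arrays were close together and both rhLH arrays lay above them. The rhLH mean was 0.60 above PBS replicate 1 and 0.49 above PBS replicate 2 on the log2 scale (pooled 0.55, SE 0.32, limma adjusted p = 0.919). The difference was 0.34 without rhLH replicate 3 and 0.75 without rhLH replicate 4. GCLC (MmuSTS.1722.1.S1_at) had 12278 and 14966 with PBS and 17689 and 21324 with rhLH, a difference of 0.52 (SE 0.36) made up of 0.66 and 0.38. GCLC was read by 5 kept probe sets, whose pooled differences were all positive, from 0.19 to 1.10. Against PBS replicate 2 all 5 were positive too, from 0.32 to 0.87, and against PBS replicate 1 they ran from −0.13 to 1.88, with 4 of 5 positive. In 3 of the 5 the groups did not overlap. These are readings of the same 4 RNA samples, not replicates.

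**Figure D3:**
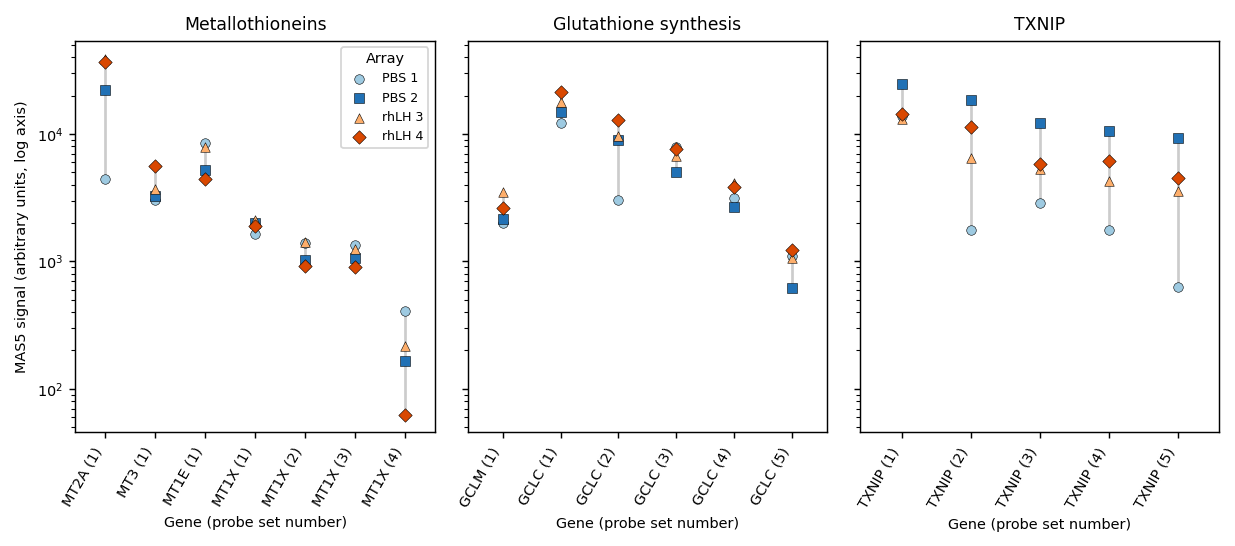
Signals (log axis, arbitrary MAS5 units) of each kept probe set of the metallothioneins, of GCLM and GCLC and of TXNIP on the 4 arrays. Both rhLH arrays lie above PBS replicate 2 on all 5 GCLC probe sets and below it on all 5 TXNIP probe sets, while the place of PBS replicate 1 (pale circles) varies between probe sets of a gene.

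Of the 9 thioredoxin-named genes measured, 2 were higher on both rhLH arrays (22.2%, beside 16.3% of all genes) and 0 were lower (beside 16.1%). Their median difference was −0.10. TXNL4A, a spliceosome protein with a thioredoxin fold (MmugDNA.14759.1.S1_s_at), had signals of 1621 and 2818 with PBS and of 3734 and 3310 with rhLH. The difference of 0.71 (SE 0.38) was 1.11 relative to the first PBS array and 0.32 relative to the second, and its 3 further kept probe sets lay at −0.05, −0.33 and −0.44, on the other side. TXNDC17, a cytosolic disulfide reductase, gave 3145 and 3499 with PBS and 3885 and 3847 with rhLH (log2 0.22, SE 0.30; 0.30 and 0.14), and its further probe set lay at −0.27.

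TXNIP, which binds thioredoxin and blocks it, took different places against the PBS arrays and is described here because of that pattern, seen in its values. Its brightest probe set gave 13824 and 24890 with PBS and 13017 and 14458 with rhLH. Both rhLH arrays lay far below PBS replicate 2. The rhLH mean was 0.86 below it on the log2 scale and level with PBS replicate 1, at −0.01 (pooled −0.43, SE 0.42). All 5 TXNIP probe sets were lower than PBS replicate 2, by log2 differences of −1.20 to −0.86. Against PBS replicate 1 the other 4 were higher, up to 2.64, so that the pooled differences ran from −0.43 to 0.72. The other thioredoxin-named genes overlapped between the groups: TXNDC15 at −0.32 (−0.69 and 0.04), TXNDC11, a binding partner of the dual oxidases, at −0.30 (0.09 and −0.69), TXNDC12 at 0.23 (0.29 and 0.18), TXNDC9 at −0.15 (−0.55 and 0.25), TXNL4B at −0.10 (−0.01 and −0.20) and TXNDC16 at 0.10 (−0.23 and 0.44). Further kept probe sets went another way for TXNDC9, at 0.24, where the groups did not overlap, and at 0.29. That of TXNL4B lay at −0.78, below both PBS arrays, against the overlap of its brightest one.

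Among the enzymes that remove superoxide and peroxide, CAT and GPX7 were higher on both rhLH arrays and GPX6 was lower, and the others overlapped between the groups. Of 3 measured members of the superoxide dismutase and catalase group, 1 was higher on both rhLH arrays (33.3%, beside 16.3% of all genes). This was CAT, catalase (MmugDNA.32721.1.S1_at), which read 128 and 259 with PBS, and 333 and 319 with rhLH. The rhLH pair was tight, and the difference of 0.78 (SE 0.52) was 1.25 over PBS replicate 1 and 0.31 over PBS replicate 2. A further CAT probe set did not pass the filter on dim probe sets and lay at −1.83. It read 310 and 97.0 with PBS, and 3.34 and 134 with rhLH. SOD1, the cytosolic superoxide dismutase, gave 11673 and 21749 with PBS and 18626 and 17812 with rhLH, a difference of 0.19 (0.64 and −0.26). SOD2, the mitochondrial one, gave 685 and 1546 with PBS and 1717 and 989 with rhLH, a difference of 0.33 (0.91 and −0.24), and its further probe set lay at −0.15.

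Of 5 glutathione peroxidases, 1 was higher and 1 lower on both rhLH arrays. Each is 20%, beside 16.3% of all genes higher and 16.1% lower. GPX7, a peroxidase of the endoplasmic reticulum (MmugDNA.6739.1.S1_at), had signals of 1395 and 2033 with PBS and of 2425 and 3031 with rhLH, a difference of 0.68 (SE 0.35) made up of 0.95 and 0.41. GPX6, known from the olfactory epithelium (MmunewRS.56.1.S1_at), had 625 and 238 with PBS and 221 and 158 with rhLH. Most of its difference of −0.99 (SE 0.59) lay against PBS replicate 1 (−1.66, and −0.33 against PBS replicate 2).

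GPX4, which reduces lipid peroxides in membranes, gave 7828 and 25065 with PBS and 18751 and 21975 with rhLH. The pooled difference was 0.53, and its 3 probe sets all showed PBS replicate 1 lowest, with differences of 1.37 to 1.88 against it and of −0.32 to 0.01 against PBS replicate 2. GPX8, another peroxidase of the endoplasmic reticulum, differed by 0.11 (0.18 and 0.05) and on its further probe set by 0.44. GPX2, the epithelial form, differed by −0.22 (0.22 and −0.66), and its further probe set, at −1.09, lay below both PBS arrays.

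All 4 measured genes of the peroxiredoxin group overlapped between the groups on their brightest probe sets. The rhLH mean of each was above PBS replicate 1 and below PBS replicate 2. PRDX3, the mitochondrial peroxiredoxin, gave 10261 and 19686 with PBS and 19438 and 19425 with rhLH. Apart from PBS replicate 1 these values are nearly level, and the difference of 0.45 (SE 0.44) was 0.92 against that array and −0.02 against the other. Its 3 further probe sets had pooled differences of 0.04 to 0.43, and 2 of them were higher on both rhLH arrays. PRDX2, a cytosolic form, differed by 0.62 (1.48 and −0.23), with further probe sets at 0.72 and 0.22. PRDX4, of the endoplasmic reticulum, differed by 0.27 (0.58 and −0.03), and SRXN1, the sulfiredoxin that repairs overoxidized peroxiredoxins, by 0.08 (0.21 and −0.06).

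Glutathione S-transferases formed the largest group, with 12 measured members and a median of 0.34, which was 0.65 relative to the first PBS array and −0.17 relative to the second. Both rhLH signals lay above both PBS signals for 3 (GSTM4, GSTO1 and GSTK1) and below for 1 (GSTZ1). Those shares were 25% and 8.33%, beside 16.3% and 16.1% of all genes. GSTM4, of the mu class (MmuSTS.740.1.S1_at), had signals of 798 and 1453 with PBS and of 1867 and 1978 with rhLH, a difference of 0.83 (SE 0.39; 1.25 and 0.40). Mu class genes are close in sequence, so this assignment is uncertain too. The further GSTM4 probe set did not pass the filter and lay at −1.07. GSTZ1, which isomerizes maleylacetoacetate in tyrosine breakdown (MmugDNA.21452.1.S1_s_at), had 2443 and 1917 with PBS and 1547 and 1579 with rhLH. Its difference was −0.47 (SE 0.32; −0.64 and −0.29), and its further probe sets lay at 0.49 and −0.58.

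GSTK1, the kappa class form of mitochondria and peroxisomes, had PBS signals within a few units of each other (1364 and 1370) and rhLH signals of 1729 and 1630. Its difference of 0.29 (SE 0.30) was thus nearly the same against each PBS array (0.30 and 0.29). GSTO1, of the omega class, gave 2040 and 2714 with PBS and 2899 and 3259 with rhLH, a difference of 0.38 (0.59 and 0.18).

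The remaining transferases overlapped between the groups. GSTM3 gave 6985 and 35611 with PBS and 19550 and 15931 with rhLH, so that both rhLH arrays lay between the PBS arrays. The rhLH mean was 1.34 above the first and −1.01 against the second. The latter was the most negative difference of any measured member against PBS replicate 2. The pooled differences were 0.16 for GSTM3, 0.59 for GSTP1 (1.46 and −0.29), 0.42 for GSTA3 (1.06 and −0.23), which also isomerizes steroids, and 0.38 for GSTA4 (0.86 and −0.10). The rhLH mean of these was above PBS replicate 1 and below PBS replicate 2. GSTT1 differed by 0.47 (0.70 and 0.24) with rhLH signals of 1953 and 4154, GSTO2 by 0.10 (0.23 and −0.03), GSTA2 by −0.13 (0.02 and −0.29) and GSTA1 by −0.44 (−0.29 and −0.60). The further probe sets lay at 0.80 for GSTA3, −0.42 for GSTM3, −0.72 for GSTA2 and −0.36 for GSTA1.

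Of the 3 microsomal transferases, which are membrane proteins, 1 was higher and 1 lower with rhLH than on either PBS array. Each is 33.3%, beside 16.3% of all genes higher and 16.1% lower. MGST2, which can also make leukotriene C4 (MmugDNA.41170.1.S1_at), had signals of 8967 and 8773 with PBS and of 13770 and 11875 with rhLH. The PBS arrays were nearly level, and the difference of 0.53 (SE 0.33, limma adjusted p = 0.919) was 0.51 against the first and 0.54 against the second, a 1.44-fold difference. MGST1 was lower on both rhLH arrays by a small step, with 11384 and 11300 with PBS and 9926 and 10660 with rhLH (log2 −0.14, SE 0.32; −0.15 and −0.14), and its further probe set overlapped (−0.07). MGST3 differed by 0.30 (0.54 and 0.07), with further probe sets at 0.30, where the groups did not overlap, and −0.21.

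Of the 4 glutaredoxins, 1 was higher on both rhLH arrays (25%, beside 16.3% of all genes). GLRX3, which handles iron-sulfur clusters, had signals of 2840 and 4513 with PBS and of 5084 and 4665 with rhLH, a difference of 0.44 (SE 0.36; 0.77 and 0.11). GLRX differed by 0.44 (0.99 and −0.10), GLRX2 by 0.26 (0.43 and 0.08) and GLRX5 by −0.18 (−0.70 and 0.35), each with overlapping groups.

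Of 5 quinone and methionine sulfoxide reductases, 1, MSRB2, was higher on both rhLH arrays (20%, beside 16.3% of all genes). All 5 pooled differences were positive, beside 51.4% of all genes. NQO2, a quinone reductase (MmugDNA.43134.1.S1_at), had signals of 787 and 2087 with PBS and of 2106 and 2078 with rhLH. The last 3 are level, and the difference of 0.70 (SE 0.50) was 1.39 over PBS replicate 1 and 0.0035 over PBS replicate 2. MSRB2, the mitochondrial methionine sulfoxide reductase, gave 1756 and 2026 with PBS and 2487 and 2388 with rhLH, a difference of 0.37 (0.47 and 0.26), and its further probe set lay at −0.15. MSRB3 differed by 0.94 (2.05 and −0.17), MSRB1 by 0.37 (0.93 and −0.19), and MSRA by 0.11 (0.20 and 0.02). The 6 kept probe sets of MSRB3 lay between −0.18 and 0.94, and 1 of them was higher on both rhLH arrays.

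The regulators of the pathway overlapped between the groups. KEAP1 (MmugDNA.15259.1.S1_at) gave 704 and 1233 with PBS and 1226 and 1045 with rhLH, a difference of 0.28 (SE 0.40) that was 0.67 relative to the first PBS array and −0.12 relative to the second. NFE2L2, which encodes NRF2, gave 5278 and 3080 with PBS and 4221 and 3582 with rhLH (log2 −0.05, SE 0.38; −0.44 and 0.33). Its 5 probe sets ran from −0.63 to 0.77, and 1 of them, at 0.16, was higher on both rhLH arrays. NFE2L1, the related factor NRF1, differed by 0.13 (0.37 and −0.11), with further probe sets at −0.54 and 0.12.

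Across the whole family, probe sets of the same gene often took different sides. For the 24 measured genes with more than 1 kept probe set, 27 of the 49 further probe sets had a difference of the same sign as the brightest one and 22 the opposite sign. No such count over all genes is set beside it, so it is not shown to be particular to the members. The median absolute difference between arrays of a group was 0.69 between the PBS arrays and 0.22 between the rhLH arrays over the members, beside 0.66 and 0.26 over all genes. The members whose rhLH mean exceeded each PBS array by at least 0.3 on the log2 scale were the 9 genes MT2A, GSTM4, GPX7, TXNL4A, GCLM, MGST2, MT3, CAT and GCLC, or 16.7%, beside 7.46% of all genes. That threshold was set after the values were seen, and the share is a description with no test.

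**Figure D4:**
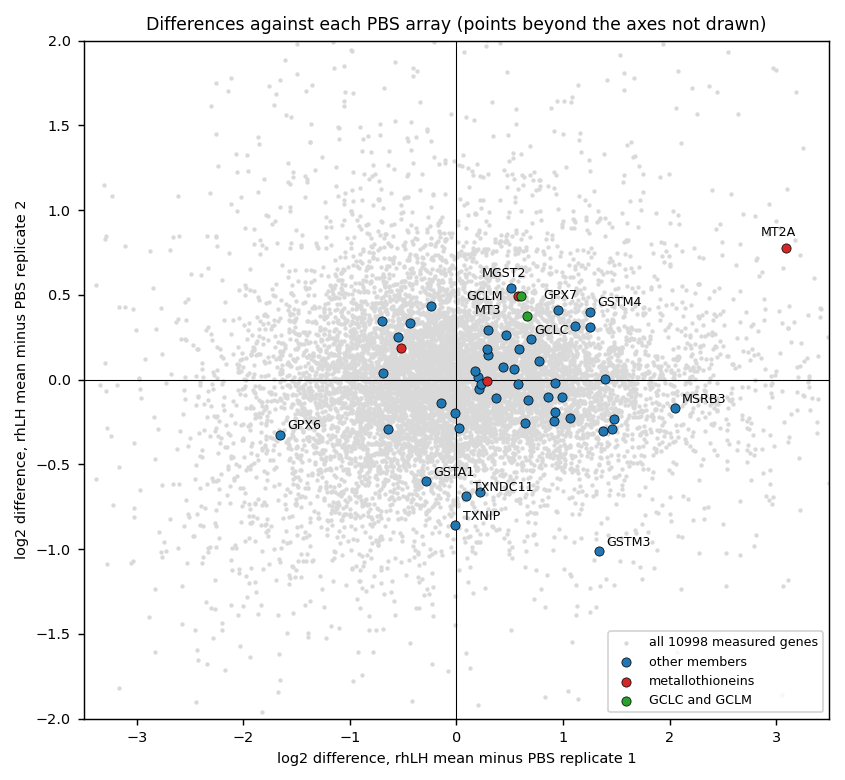
Log2 difference of the rhLH mean against PBS replicate 1 (horizontal) and against PBS replicate 2 (vertical), for all 10998 measured genes (grey) and the 54 members; both axes share the rhLH arrays. The members lie mostly to the right of 0 (42 of 54, beside 49.5% of all genes). On the vertical axis the members lie evenly about 0 (27 of 54 above, beside 49.7% of all genes), with MT2A at 3.10 and 0.78.

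Genes of the pathway outside the family were read from lists of their own. Of 17 measured targets and partners of NRF2, both rhLH signals were below both PBS signals for 5 (29.4%, beside 16.1% of all genes) and above for 0 (beside 16.3%), and the median was −0.30 (−0.46 and −0.31 against the PBS arrays). The lowest p-values there were those of the export pumps ABCC1, with signals of 3819 and 2976 with PBS and 1554 and 1973 with rhLH (log2 −0.94, SE 0.33; −1.12 and −0.76), and ABCC3 (log2 −1.05, SE 0.40; −0.92 and −1.19). ABCC1 carries glutathione conjugates out of cells and ABCC3 carries mainly glucuronides, and neither passed the test (limma adjusted p = 0.919 for each). The other 3, named after their values were seen, were ME1, which makes NADPH, at −0.30 (−0.46 and −0.13), FTL, the ferritin light chain, at −0.57 (−0.84 and −0.31), and BACH1, a repressor of NRF2 targets, at −1.42 (−2.15 and −0.68).

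Of 16 genes of zinc and copper handling, 4 were higher with rhLH in this sense (25%, beside 16.3% of all genes) and 1 was lower (6.25%, beside 16.1%). SLC30A4, a zinc exporter into vesicles, had signals of 136 and 143 with PBS and of 282 and 365 with rhLH, a difference of 1.12 (SE 0.47) that was 1.15 and 1.09 against the PBS arrays in turn (limma adjusted p = 0.919). SLC39A11, a zinc importer, differed by −0.74 (−0.99 and −0.49). MTF1, the zinc-sensing factor that drives metallothionein genes, gave 459 and 540 with PBS and 520 and 525 with rhLH, which overlap, and differed by 0.07 (0.18 and −0.05; chosen after its values were seen).

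Of 9 genes of glutathione turnover, 2 were higher (22.2%) and 3 lower (33.3%), beside the same 16.3% and 16.1% of all genes. IDH1, which makes cytosolic NADPH, gave 13643 and 12893 with PBS and 8510 and 9561 with rhLH (log2 −0.56, SE 0.33; −0.60 and −0.51), and ANPEP, a peptidase that splits cysteinylglycine, differed by −0.58 (−0.82 and −0.33). That list holds GGCX, a vitamin K-dependent carboxylase that is not a glutathione enzyme. Of 9 makers of reactive oxygen, 3 were higher (33.3%, beside 16.3% of all genes) and 0 lower (beside 16.1%), among them CYBA at 1.10 (2.07 and 0.12). NOX1 overlapped between the groups at 1.37 (2.65 and 0.08). Of 5 genes of selenium use, 0 were higher (beside 16.3% of all genes) and 1 lower (20.0%, beside 16.1%). The lower one was EEFSEC at −0.48 (−0.57 and −0.40), while SEPHS2 overlapped at 1.19 (2.07 and 0.30).

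For 6 of 8 lists of cell type markers the summed signal was lowest on PBS replicate 1, as it was for most members, and 0 of the markers on the array were at 0. Each sum is set mostly by the brightest probe sets of its list, and the markers within a list went different ways. The summed signal of the 8 granulosa-lutein markers on the array was 83047 on PBS replicate 1, 172304 on PBS replicate 2, and 172133 and 185531 on the rhLH arrays. All but HSD17B1 were lowest on PBS replicate 1. Of the 8, 5 were higher on both rhLH arrays (62.5%, beside 16.3% of all genes). The counts for the lists below stand beside the same 16.3% of all genes higher and 16.1% lower. For 10 macrophage markers the sums were 5836 and 11952 with PBS and 12352 and 7712 with rhLH, with 0 of 9 measured higher or lower. For 6 markers of T and NK cells they were 8465 and 29290 with PBS and 28834 and 21690 with rhLH, with 2 of 6 higher. Here GNLY, GZMB, KLRD1 and CD4 were lowest on PBS replicate 1, ZAP70 was highest on it, and CD8A was neither. For 13 endothelial markers the sums were 23643 and 31858 with PBS and 28110 and 31834 with rhLH, with 2 higher and 1 lower. For 6 pericyte and smooth muscle markers they were 11557 and 16631 with PBS and 16235 and 20166 with rhLH, with 1 higher. For 7 fibroblast markers they were 33142 and 63950 with PBS and 55171 and 61508 with rhLH, with 1 lower. Of these, COL1A1, COL1A2 and DCN were lowest on PBS replicate 1. COL3A1, LUM and FAP were highest on it, and DPT was neither. For 6 neutrophil markers the sums ran from 778 to 924, with 1 of 4 measured lower, and for 4 red blood cell markers from 948 to 1249, with 1 of 2 measured higher. Their part in the members' differences was not tested.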

How the data were processed

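Total RNA of corpora lutea was extracted with Trizol, cleaned on columns, labelled with biotin and measured on 4 Affymetrix rhesus macaque arrays, per the labels' protocols. What the authors deposited are intensities, 1 linear MAS5 signal per probe set, per the labels and the submitters' processing notes. Scaling target and detection calls: not given in the sources used here. The 2% trimmed mean of the signals was 500.0 on all arrays, so no further normalization was applied. Groups came from the sample titles.

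Of 52865 probe sets, 99 controls were set aside; of the other 52766, 24956 had 1 gene symbol in the platform annotation, 361 several and 27449 none. Probe sets with a mean of log2(signal + 16) above the 40th percentile were kept (31659), covering 10998 genes by the brightest probe set. limma 3.58.1 in R 4.3.3 (lmFit, then eBayes with a mean-variance trend; two-sided p-values, Benjamini-Hochberg adjustment over all kept probe sets, threshold 0.05) compared rhLH with PBS. SEs come from that fit, and the fold differences are on the log2(signal + 16) scale. The fit was tested on simulated data. "Higher" or "lower" on both rhLH arrays means that the groups did not overlap, with no test.

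Members and lists were chosen with earlier results of these data known. All 4 signals are given for the metallothioneins, the 12 members of smallest p and the one of smallest p in each role, and of each list of other genes the 2 of smallest p are named; further genes were chosen after their values were seen. The p-values measure the spread between these arrays, which may be technical, and 2 arrays per group limit the precision. Alternatives covered normalization, pseudocount, filter, variance prior, array weights, probe set choice and each array left out. No genome or sequence table was used, so no sequence or coordinate is given.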

Additional observations from a re-analysis of the deposited data

How the results depend on the processing

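The number of arrays limits these results: with all 4 arrays limma called 0 probe sets, and with 1 array left out it called 0 to 8169. The 8169 came without PBS replicate 2, where PBS replicate 1, the array that stood apart, was the sole control and its spread was assumed to be like that of the rhLH arrays. There, 19 members passed the limma test at an adjusted p of 0.05 (18 higher, 1 lower), beside 25.9% of all genes, and 10 of the 19 had the opposite sign against PBS replicate 2. The adjusted p of MT2A was 0.000999 there. Under no other setting was any probe set called. Leaving out 1 array at a time, the members higher on both rhLH arrays (14 with all arrays) numbered 18 to 40, those lower (3) 6 to 20, and the members' median (0.28) ran from −0.0015 without PBS replicate 1 to 0.53 without PBS replicate 2. Over all genes, the shares with 1 array left out ran from 25.4% to 43.5% higher and from 26.4% to 43.5% lower. Quantile normalization gave 5 members lower in place of 3, beside 14.4% of all genes in place of 16.1%. Centring arrays on their medians moved the median of all genes from 0.02 to 0.13 and that of the members to 0.39. There, 16 members were higher and 2 lower, beside 20.6% and 12.7% of all genes. The members' median was 0.22 to 0.39 under the alternatives that kept all arrays. Of 202 recomputed differences of 17 named members, 187 kept their sign and stayed on the same side of the threshold, 10 passed the threshold, all without PBS replicate 2, and 5 changed sign, all with 1 array left out: KEAP1 ranged from −0.12 to 0.67, MT1X from −0.0064 to 0.28, PRDX3 from −0.019 to 0.92 and MT1E, which changed sign in both of its cases, from −0.58 to 0.25. Beyond the arrays left out, the cause was not tested. No paired analysis was possible because the groups share no replicate number.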
